A study of Mus musculus with 24 samples.

Results

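The genes followed here in mouse thymocyte samples were 9 that identify B lymphocytes: Cd79a, Cd79b, Vpreb3, Ms4a1, Cd22, Cr2, Fcer2a, Blk and Pax5. The members were chosen by name, and each was found through the transcript accession of its array probes. All 9 were found, on 11 of the 55681 non-control probes, among 21154 genes that could be named. Cr2 and Pax5 had 2 probes each, and each gene is described by its brighter probe in the thymocyte channel unless stated.

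The samples came from female and male C57BL/6J mice aged 4 to 5 weeks, and each sex had a non-irradiated control group, a low dose group given 0.075 Gy of X-rays, a high dose group given 1.75 Gy of γ-rays, and a group on the adaptive regimen of radiation (RAR), given 0.075 Gy of X-rays and, 6 h later, 1.75 Gy of γ-rays. Each of the 8 groups held 3 independent thymocyte samples, so that 24 arrays were available. The study's methods give no time between the last irradiation and sampling. Whether the groups differed in time since irradiation is therefore not known. By the study's methods the mice were irradiated, the thymus was dispersed and passed through a mesh, and no sort was made. Each array set thymocyte RNA, labelled with Cy5, against a pool of Universal Mouse RNA, labelled with Cy3, with no dye swap. Values are log2(Cy5/Cy3), and a difference of 1 is a change of 2-fold in the sample relative to the pool.

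B lymphocytes recognise antigen through a membrane immunoglobulin that signals through the CD79A and CD79B chains, and co-receptors such as CD22 and CR2 tune that signal. PAX5 holds cells in the B lineage, and in the thymus B cells are a small population beside the developing T cells. Thymocyte precursors are known to transcribe a few of these genes at low levels, and several co-receptor genes can be used by other leukocytes, so a B-cell identity gene in bulk thymus RNA need not come from a B cell.

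Of the double-positive thymocyte markers (Cd4, Cd8a, Rag1 and others), 11 of 11 had Cy5 signal well above background on all 24 arrays. Detection alone does not identify the cell type, as 8 of 8 myeloid and 7 of 7 mature T-cell markers were also detected on all 24. Across arrays, 49.3 to 62.8% of spots had Cy5 well above background in 21 arrays, but in the female RAR group the share was 53.9% on replicate 1, 71.8% on replicate 2 and 34.7% on replicate 3. The number of arrays limits the precision. The arrays lay on 3 slides that were not balanced over the groups: the female controls were all on slide 3, the female high dose arrays were all on slide 1, and the RAR arrays of either sex were on slides 1 and 2. In these bulk samples, fewer cells of a type and less RNA per cell cannot be told apart.

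The B-cell identity genes did not move together. After RAR, Cd22 rose in both sexes while Cd79b, Ms4a1 and Vpreb3 fell in both sexes, and Cr2 and Fcer2a were not called. A gene was called where limma's p, after Benjamini-Hochberg adjustment across the 55681 probes, was below 0.05 and it changed by 1.5-fold or more. In females after RAR 1 of 9 genes was called higher and 4 lower, where 20.4% of all probes were called, and in males 1 was called higher and 4 lower, where 24.4% were called. After the high dose the counts were 0 higher and 2 lower in females, with 7.84% of all probes called, and 1 higher and 3 lower in males, with 10.5% called. After the low dose they were 0 higher and 1 lower in females, with 8.74% called, and 0 higher and 2 lower in males, with 6.63% called. The median difference of the 9 genes from control after RAR was -0.35 in females and -0.52 in males, against -0.04 and -0.02 over all probes. With dim probes left out, 32732 probes remained, and a larger share of these was called. After RAR 5274 of them were higher and 6096 lower in females, and 5984 were higher and 7141 lower in males. The 3 comparisons within a sex share their control arrays.

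Separation of 3 arrays from 3 was common on these arrays and is read below against its frequency. Between RAR and control, 36.9% of all probes in females and 42.6% in males had groups that did not overlap. The same held for 30% and 34.6% between the high dose and control, and for 30.3% and 26.2% between the low dose and control. For RAR against the high dose it held for 28.2% and 30.7%, and for RAR against the low dose for 24% and 28.5%.

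**Figure D1:**
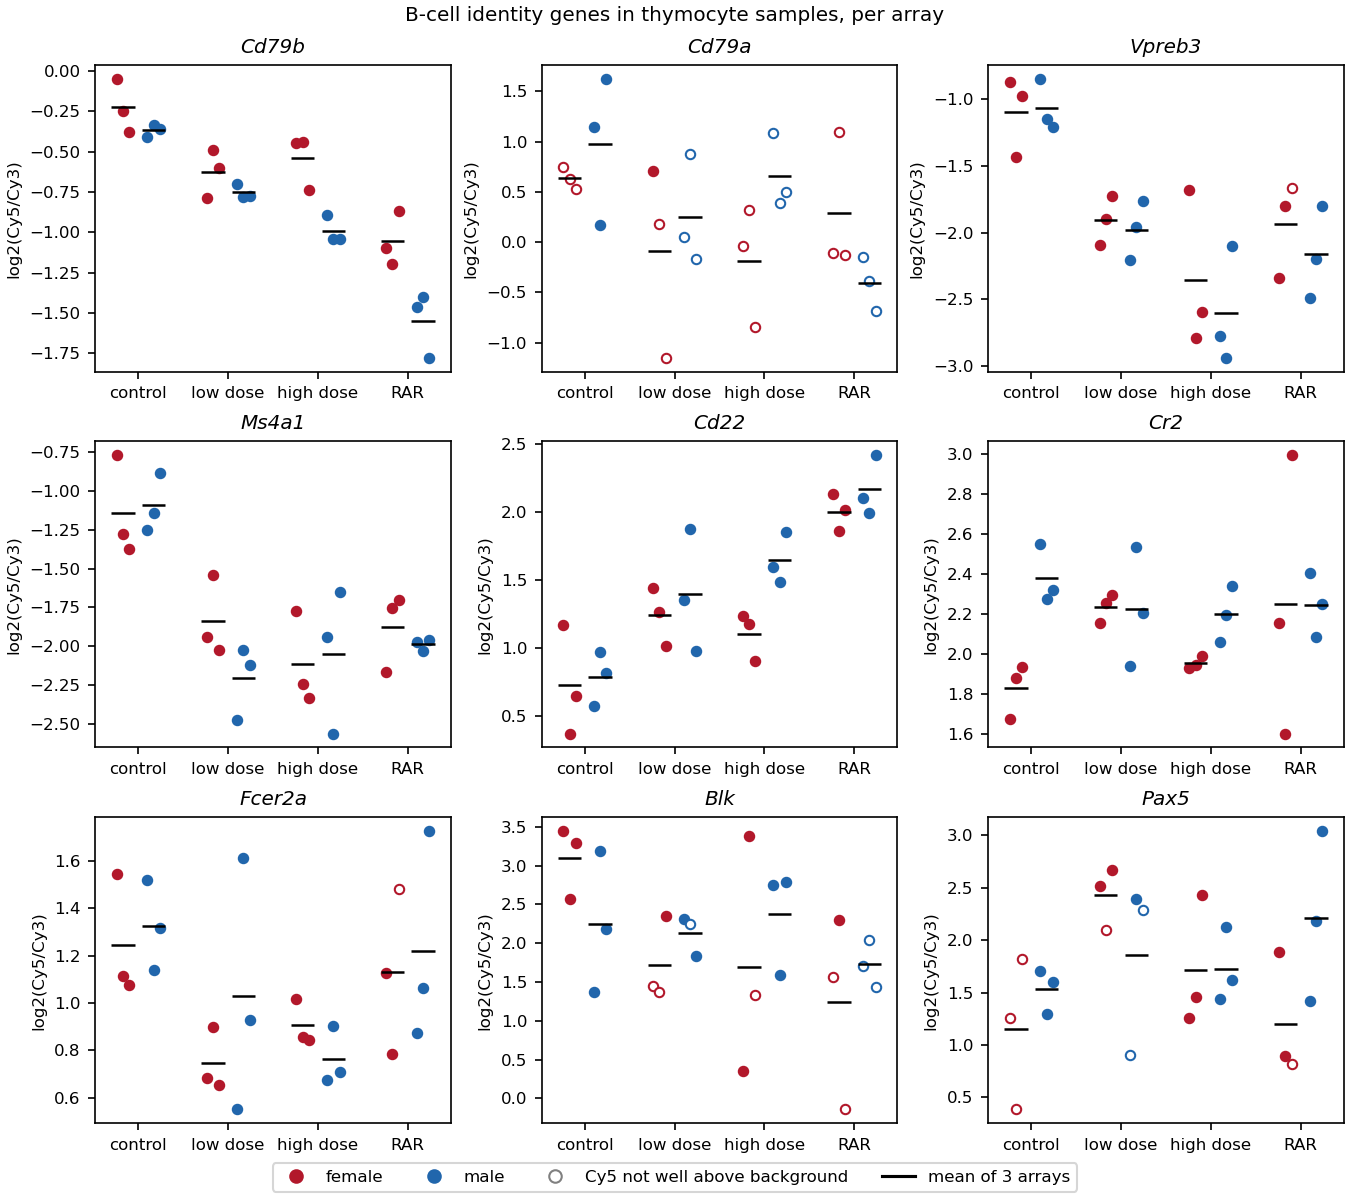
Log2(Cy5/Cy3) of each of the 9 genes on every array, by treatment (horizontal axis of each panel) and sex (colour), with a black bar at the mean of 3 arrays and open circles where Cy5 was not well above background. Cd79b steps down and Cd22 steps up from control to RAR, Ms4a1 and Vpreb3 drop at every dose, and the open circles mark Cd79a as mostly below detection; the vertical scale differs between panels.

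Cd79b, a signalling chain of the B-cell receptor, fell in RAR thymocytes of both sexes, by 1.77-fold in females and 2.27-fold in males. Its probe was well above background on all 24 arrays. In females the control arrays read -0.05, -0.25 and -0.38, the low dose arrays -0.79, -0.49 and -0.60, the high dose arrays -0.45, -0.44 and -0.74, and the RAR arrays -1.10, -1.19 and -0.87. In males the control arrays read -0.41, -0.34 and -0.36, the low dose arrays -0.70, -0.78 and -0.78, the high dose arrays -0.89, -1.04 and -1.04, and the RAR arrays -1.47, -1.40 and -1.78. Within each sex the RAR arrays were the lowest and overlapped with no other group.

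Against control, the RAR difference in Cd79b was -0.83 ± 0.13 (SE) in females (limma adjusted p = 5.36e-05) and -1.18 ± 0.13 in males (limma adjusted p = 8.39e-07). The high dose alone lowered it in males, by 0.62 ± 0.13 (limma adjusted p = 0.00184). Other Cd79b differences passed the adjusted p but stayed under 1.5-fold: -0.40 in females after the low dose (limma adjusted p = 0.0387), -0.51 in females for RAR against the high dose (limma adjusted p = 0.0129), -0.56 in males for the same comparison (limma adjusted p = 0.00821) and -0.43 in females for RAR against the low dose (limma adjusted p = 0.047). In males RAR was lower than the low dose by 0.80 ± 0.13 (limma adjusted p = 0.000249).

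Cd79a, which encodes the partner chain, was at the edge of detection, and its ratios carry little information. Its Cy5 signal was well above background on 4 of 24 arrays, 3 of them the male controls, and its Cy3 reference signal on 0. Array sensitivity also differed between these groups. The lowest Cy5 level well above background was log2 4.56 to 4.87 on the male controls and 5.17 to 5.46 on the male RAR arrays. The male control ratios were 1.14, 0.17 and 1.62, and the male RAR ratios were -0.15, -0.39 and -0.69, with no overlap. That difference of -1.39 ± 0.47 was called (limma adjusted p = 0.029), but as no male RAR array was well above background, the thymocyte channel gives only a bound, at least 1.43-fold lower. The bound sets the mean normalized Cy5 level of the male controls against, on each male RAR array, the higher of the probe's own level and the lowest level among probes well above background. It carries no error term and is not a confidence limit. In females 0 of 3 control arrays were well above background, and no comparison with control was called.

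Vpreb3, a surrogate light chain-like protein of B-cell precursors, fell in 5 of the 6 irradiated groups. In females the controls read -0.87, -1.43 and -0.98, the low dose arrays -2.10, -1.90 and -1.72, the high dose arrays -1.68, -2.79 and -2.59, and the RAR arrays -2.34, -1.80 and -1.67. In males the controls read -0.85, -1.15 and -1.21, the low dose arrays -2.21, -1.96 and -1.76, the high dose arrays -2.78, -2.94 and -2.10, and the RAR arrays -2.49, -2.19 and -1.80. Within each sex all irradiated arrays lay below the controls, and the probe was well above background on every array but female RAR replicate 3.

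Vpreb3 was lowest on average after the high dose in both sexes. There the difference from control was -1.26 ± 0.28 in females (limma adjusted p = 0.00552) and -1.54 ± 0.28 in males (limma adjusted p = 0.00088), a change of 2.39-fold and 2.90-fold. After RAR it was -0.84 ± 0.28 in females (limma adjusted p = 0.0318) and -1.09 ± 0.28 in males (limma adjusted p = 0.00537). After the low dose it was -0.91 ± 0.28 in males (limma adjusted p = 0.0455), and -0.81 ± 0.28 in females, where the call was missed (limma adjusted p = 0.0648). RAR and the high dose were not told apart: the difference was 0.42 in females, with an unadjusted 95% interval of -0.18 to 1.01, and 0.44 in males, with one of -0.15 to 1.04.

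Ms4a1 encodes CD20, a membrane protein of mature B cells, and was called lower in all 6 irradiated groups. In females the controls read -0.77, -1.28 and -1.37, the low dose arrays -1.94, -1.54 and -2.02, the high dose arrays -1.77, -2.24 and -2.34, and the RAR arrays -2.17, -1.76 and -1.70. In males the controls read -1.25, -1.14 and -0.88, the low dose arrays -2.47, -2.03 and -2.12, the high dose arrays -1.94, -2.56 and -1.65, and the RAR arrays -1.97, -2.03 and -1.96. The irradiated groups of each sex overlapped with one another and not with the controls.

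In females Ms4a1 fell by 0.69 ± 0.23 after the low dose (limma adjusted p = 0.0486), by 0.98 ± 0.23 after the high dose (limma adjusted p = 0.00724) and by 0.73 ± 0.23 after RAR (limma adjusted p = 0.0208). In males it fell by 1.11 ± 0.23 after the low dose (limma adjusted p = 0.00362), by 0.96 ± 0.23 after the high dose (limma adjusted p = 0.0065) and by 0.89 ± 0.23 after RAR (limma adjusted p = 0.00484). The female low dose call lay close to the threshold and was lost when any 1 of 18 of the 24 arrays was left out. Adding the priming dose to the high dose left no detectable difference in Ms4a1, at 0.24 in females (unadjusted 95% interval -0.24 to 0.72) and 0.06 in males (-0.41 to 0.54).

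With both sexes together, every one of the 18 irradiated arrays lay below every one of the 6 control arrays for 3 of the 9 genes. For Ms4a1 the highest irradiated array read -1.54 and the lowest control -1.37, for Vpreb3 these were -1.67 and -1.43, and for Cd79b they were -0.44 and -0.41, a narrow gap. Of all probes, 6.21% were separated in this way with the irradiated arrays lower, and 3.11% with them higher.

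Cd22 encodes an inhibitory co-receptor of the B-cell receptor that binds sialic acid, and it changed in the opposite direction. In females the controls read 1.17, 0.37 and 0.65, the low dose arrays 1.45, 1.26 and 1.02, the high dose arrays 1.23, 1.18 and 0.91, and the RAR arrays 2.14, 1.86 and 2.02. In males the controls read 0.58, 0.97 and 0.82, the low dose arrays 1.35, 1.88 and 0.98, the high dose arrays 1.60, 1.49 and 1.86, and the RAR arrays 2.11, 1.99 and 2.42. The RAR arrays were the highest within each sex and overlapped with no other group of that sex, and the probe was well above background on all 24 arrays.

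After RAR, Cd22 rose by 1.27 ± 0.22 in females (limma adjusted p = 0.000197) and by 1.39 ± 0.22 in males (limma adjusted p = 6.57e-05), or 2.42-fold and 2.61-fold. The high dose alone gave 0.86 ± 0.22 in males, which was called (limma adjusted p = 0.0104), and 0.38 ± 0.22 in females, which was not (limma adjusted p = 0.328). The low dose gave 0.51 in females (limma adjusted p = 0.147) and 0.61 in males (limma adjusted p = 0.084), neither called.

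RAR was also set against each single dose. Cd22 was higher after RAR than after the high dose in females, by 0.90 ± 0.22 (limma adjusted p = 0.0129), and the corresponding 0.53 ± 0.22 in males was not called (limma adjusted p = 0.148). It was higher than after the low dose by 0.76 ± 0.22 in females (limma adjusted p = 0.0443) and by 0.77 ± 0.22 in males (limma adjusted p = 0.0205). In RAR against the high dose 1 of 9 genes was called in females, where 7.25% of all probes were, and 0 of 9 in males, where 5.84% were. In RAR against the low dose 1 of 9 was called in females, where 4.12% of probes were, and 2 of 9 in males, Cd22 and Cd79b, where 9.76% were.

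**Figure D2:**
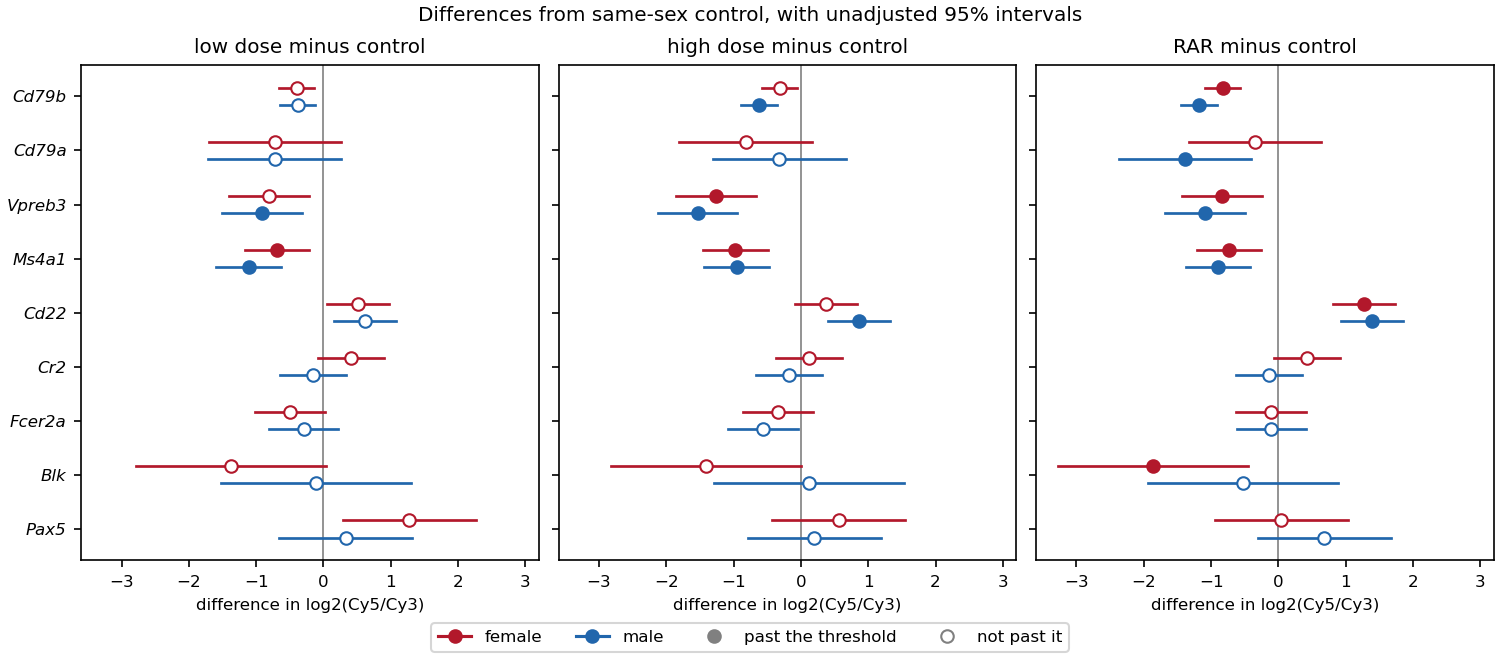
Difference in log2(Cy5/Cy3) from the same-sex control for each gene (rows) after low dose, high dose and RAR (panels), with lines for unadjusted 95% intervals and filled points where the adjusted p and the 1.5-fold limit were both met. After RAR, Cd22 lies at 1.27 and 1.39, on the other side of 0 from Cd79b, Vpreb3 and Ms4a1, while the open points of Cr2 (0.42 and -0.13) and Fcer2a (-0.12 and -0.10) have intervals that include 0.

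Cd22 and Vpreb3, which moved in opposite directions, are shown with the stretch of DNA around a start site given by RefSeq on GRCm38.p6, 250 bases before it and 50 after, read 5′ to 3′ on the gene's strand. RefSeq promoters were at hand for 6 of the 9 genes. Short motifs of factors used by B cells and other leukocytes were searched on both strands, namely the octamer ATGCAAAT, the EBF-type palindrome CCCNNGGG, the E box CAGCTG and the purine box GAGGAA. Capitals mark a match, which is a description of the letters and not evidence of binding.
Cd22, chr7:30878979-30879278, minus strand: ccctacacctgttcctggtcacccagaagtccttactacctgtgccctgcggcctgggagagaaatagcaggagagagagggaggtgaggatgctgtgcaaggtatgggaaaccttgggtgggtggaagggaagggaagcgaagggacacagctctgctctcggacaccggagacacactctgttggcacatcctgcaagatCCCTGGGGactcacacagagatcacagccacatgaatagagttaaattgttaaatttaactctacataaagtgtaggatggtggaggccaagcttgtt
Vpreb3, chr10:75948050-75948349, plus strand: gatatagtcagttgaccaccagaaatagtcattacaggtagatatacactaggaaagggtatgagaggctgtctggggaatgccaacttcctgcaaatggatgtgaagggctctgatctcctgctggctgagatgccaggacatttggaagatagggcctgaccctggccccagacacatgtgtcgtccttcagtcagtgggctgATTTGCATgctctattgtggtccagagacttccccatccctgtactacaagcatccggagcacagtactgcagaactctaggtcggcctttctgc
The Cd22 window holds 1 match to the EBF-type palindrome, beginning 48 bases before the start site, and 13.7% of the 32851 mouse promoters of this length hold one. The Vpreb3 window holds 1 octamer, on the opposite strand, beginning 45 bases before the start site, and 1.74% of promoters hold one. Neither window holds an E box or a purine box, which 16.3% and 28.3% of promoters do.

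Cr2, the complement receptor CD21, gave readings that depended on the probe. Its brighter probe ranged from 1.68 to 1.93 in the female controls and from 1.60 to 2.99 in female RAR, and from 2.28 to 2.55 in the male controls and from 2.08 to 2.40 in male RAR. No comparison was called, and the RAR difference was 0.42 in females (unadjusted 95% interval -0.07 to 0.91) and -0.13 in males (-0.63 to 0.36). The second Cr2 probe, assigned to the same transcript but dimmer, read 1.69, 2.05 and 1.99 in male controls and 0.28, 0.72 and 1.33 in male RAR, a difference of -1.13 ± 0.33 (limma adjusted p = 0.0114), with 2 of 3 RAR arrays well above background. The direction for Cr2 in males after RAR is therefore uncertain.

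Fcer2a encodes CD23, the low-affinity IgE receptor, and was not called in any comparison. Its controls ranged from 1.08 to 1.55 in females and from 1.14 to 1.52 in males, and RAR from 0.78 to 1.48 and from 0.87 to 1.73. The RAR difference was -0.12 in females (unadjusted 95% interval -0.63 to 0.40) and -0.10 in males (-0.62 to 0.41).

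Blk is a Src-family kinase that acts below the B-cell receptor, and its probe was well above background on 15 of 24 arrays. That count is for the thymocyte channel. The Cy3 reference signal of the probe passed the same limit on only 1 array. All Blk ratios, and the call made from them, therefore rest on a denominator near background. In females the controls read 3.45, 2.57 and 3.29 and the RAR arrays 1.56, 2.29 and -0.14, without overlap, and 1 of the 3 RAR arrays was well above background. The difference of -1.87 ± 0.67 was called (limma adjusted p = 0.0457), close to the threshold, and the call was lost when any 1 of 16 of the arrays was left out. In males the controls read 1.38, 3.19 and 2.18 and the RAR arrays 1.71, 2.04 and 1.43, with overlap, and the ratio difference was not called (limma adjusted p = 0.641). In the thymocyte channel 3 of 3 male controls and 0 of 3 male RAR arrays were well above background. The lowest Cy5 level well above background was log2 4.66, 4.56 and 4.87 on these controls. On the male RAR arrays it was 5.25, 5.17 and 5.46, so sensitivity differed too. The bound formed as for Cd79a was at least 2.10-fold lower in male RAR.

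Pax5, the transcription factor that commits cells to the B lineage, was not called in any comparison. In Cy5 its brighter probe was well above background on 17 of 24 arrays and its other probe on 0 of 24. In Cy3 the brighter probe was so on only 2 arrays, so its ratios also rest on a reference signal near background. The female controls, at 1.26, 0.39 and 1.82, were all below detection, and the female low dose arrays read 2.52, 2.10 and 2.67, a difference of 1.27 ± 0.47 (limma adjusted p = 0.0842). The RAR difference was 0.04 in females (unadjusted 95% interval -0.94 to 1.03) and 0.68 in males (-0.31 to 1.67).

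No member was called different between the sexes in any treatment. Called counts were 0 of 9 for control, low dose, high dose and RAR, where 0.207%, 0.223%, 0.296% and 0.438% of all probes were called, in that order, and 0 of 9 for a sex by treatment interaction by limma's F-test, where 0.00359% were. By unadjusted p the smallest interaction was that of Cd79b, at 0.0974 (limma adjusted p = 0.805). After RAR Cd79b read lower in males than in females without overlap, as 14.5% of all probes did in either direction, with a difference of -0.50, which was not called (limma adjusted p = 0.117). The male minus female difference in Cd22 after RAR was 0.17 (limma adjusted p = 0.796).

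Members that moved alike across groups did not always vary alike between arrays of a group. Over the 24 arrays, Ms4a1 and Vpreb3 correlated at r = 0.84, and r was 0.62 after each group's mean was removed. Cd22 and Cd79b correlated at r = -0.84 over the arrays and at r = 0.08 after the group means were removed. These are descriptions, and the arrays share a reference pool and slides.

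**Figure D3:**
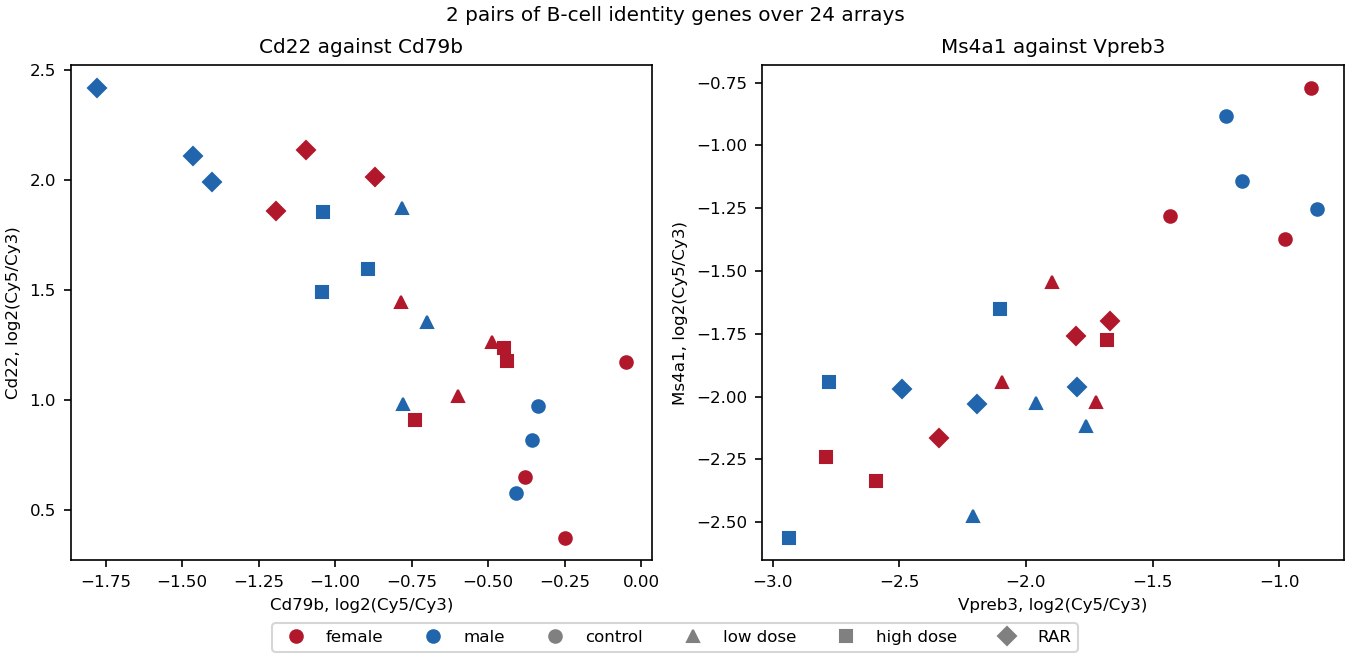
Log2(Cy5/Cy3) of Cd22 against Cd79b (left) and of Ms4a1 against Vpreb3 (right), 1 point per array, with sex by colour and treatment by shape. On the left the arrays run from control to RAR along a falling line (r = -0.84), and on the right the 6 controls stand apart from all 18 irradiated arrays at the upper right.

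The mean of the 8 members that were well above background on at least 12 arrays, each centred on its own mean, was set against 14119 other named genes. The 10 most alike over the 24 arrays were Snhg16 (r = 0.83), 3110082I17Rik (0.77), Rps25 (0.76), Eef1g (0.75), Atp5e (0.75), Arhgef4 (0.75), Phgdh (0.74), Nme4 (0.74), Bola2 (0.73) and Mrpl33 (0.73). Their r after removal of the group means ran from 0.41 to 0.74. None of the other B-cell genes examined was among the 10. The mean joins members that rose with members that fell, so opposite changes partly cancel in it. Members were not scaled, so those that varied more weigh more (within-group SD 0.86 for Blk and 0.14 for Cd79b). The 10 genes therefore describe this mean and no single member, and nothing is read from the absence of B-cell genes.

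Of 29 other B-lineage genes examined, 26 were measured and 22 were well above background on at least 12 arrays. The immunoglobulin genes Ighm, Ighd and Igkc were not matched through their accessions. After RAR 7 rose and 5 fell in females, and 10 rose and 5 fell in males, with a median of 0.24 and 0.40. In females 2 of 5 receptor and signalling genes and 2 of 5 transcription factors rose, and none fell. In males 3 of 5 and 2 of 5 rose, and none fell. Of 10 surface genes 1 rose and 4 fell in females, and 2 rose and 4 fell in males. Of all probes, 20.4% were called in females and 24.4% in males, and calls in both directions were common. For receptor and signalling genes the log2 of summed Cy5 ran from 11.86 to 12.09 in female controls and 12.32 to 12.74 in female RAR. In males it ran from 11.81 to 12.04 in controls and 12.54 to 12.87 in RAR. Sums of the precursor and plasma cell genes were also higher after RAR without overlap. Those of the surface genes overlapped in both sexes. Single probes were separated in 36.9% (females) and 42.6% (males).

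Those that fell in both sexes were Cxcr5, Fcrla, Fcmr and Vpreb1, joined by Fcrl1 in females and Tnfrsf13c in males. Cxcr5, the chemokine receptor that guides B cells into follicles, was at -2.07 and -2.92 (limma adjusted p = 0.0407 and 0.00411), Fcrla at -2.15 and -2.63 (limma adjusted p = 0.0103 and 0.00196), and Fcmr, the IgM Fc receptor, at -2.08 and -2.22 (limma adjusted p = 0.000185 and 7.5e-05), in females and males. Tnfrsf13c, the BAFF receptor, was at -1.90 ± 0.41 in males (limma adjusted p = 0.00132) and at -0.71 ± 0.41 in females, which was not called (limma adjusted p = 0.236). The largest rises were those of Spi1, which encodes the myeloid and B-cell factor PU.1, at 2.52 and 2.31 (limma adjusted p = 0.000129 and 0.000241), and Cd93, which marks precursor B cells and also myeloid and endothelial cells, at 1.77 and 2.48 (limma adjusted p = 1.6e-06 and 2.33e-08). Spi1 was well above background on only 5 arrays and Fcrl1 on only 7, and Tnfrsf13c was so on 19.

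After the single doses the calls among these 26 genes were 3 for the high dose and 2 for the low dose in females, where 7.84% and 8.74% of all probes were called, and 3 and 3 in males, where 10.5% and 6.63% were, and nothing particular to B-lineage genes is read from these counts. After the high dose Spi1 and Jchain, the joining chain of secreted antibody, rose and Vpreb1, a surrogate light chain of B-cell precursors, fell in females, and Bcl11a, a transcription factor of lymphoid precursors, and Jchain rose and Tnfrsf13c fell in males. After the low dose Jchain rose and Sdc1, the plasma cell marker CD138, fell in females, and Bcl11a and Jchain rose and Tnfrsf13c fell in males. Some of these genes lie outside the 6 with the largest changes and are named because so few passed the threshold.

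**Figure D4:**
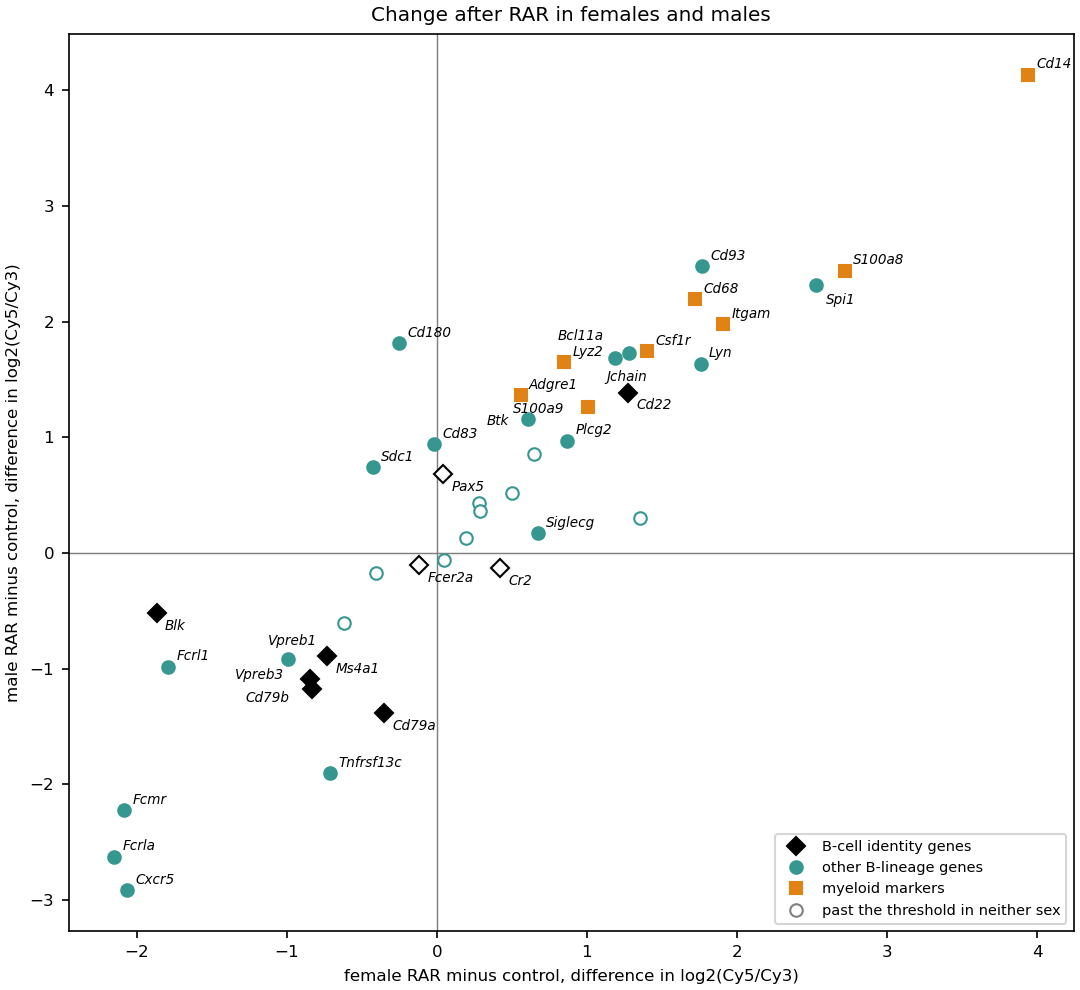
Difference in log2(Cy5/Cy3) between RAR and control in females (horizontal) and males (vertical), with 1 point per gene for the B-cell identity genes (diamonds), other B-lineage genes (circles) and myeloid markers (squares), filled where the threshold was passed in either sex. Fcmr, Fcrla and Cxcr5 lie at the lower left with Cd79b, Ms4a1 and Vpreb3. Cd22 lies at the upper right with the myeloid markers and with other B-lineage genes that rose. Of the other B-lineage genes, 7 rose and 5 fell in females and 10 rose and 5 fell in males.

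Markers of myeloid cells moved with the treatments as well. After RAR 7 of 8 rose in females and 8 of 8 in males, with a median of 1.56 and 1.86, and after the high dose 3 and 7 of 8 rose, and after the low dose 3 and 5 of 8. Of all probes, 20.4% in females and 24.4% in males were called after RAR. The shares were 7.84% and 10.5% after the high dose, and 8.74% and 6.63% after the low dose. All 8 were well above background on all 24 arrays. The log2 of their summed, normalized Cy5 signal ran from 15.86 to 16.51 in female controls and from 18.19 to 18.34 in female RAR, and from 15.95 to 16.43 in male controls and from 18.10 to 18.49 in male RAR, without overlap. Of single probes, 36.9% in females and 42.6% in males separated RAR from control without overlap, in either direction. The part of myeloid cells in the rise of Cd22 was not tested. Of 11 double-positive thymocyte markers 2 rose and 2 fell in females after RAR and 4 rose and 0 fell in males, with a median of 0.08 and 0.33. The log2 of their summed Cy5 signal was nevertheless lower after RAR without overlap, running from 19.21 to 19.39 in female controls and 18.72 to 19.06 in female RAR, and from 19.24 to 19.32 in male controls and 18.64 to 18.73 in male RAR. Such a sum is weighted toward the brightest genes and is not a count of cells, and the medians of the ratios did not fall.

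Some markers of other cells also changed after RAR, where 20.4% of all probes were called in females and 24.4% in males. Of 5 cortical epithelium markers 3 fell and 1 rose in each sex, with a median of -1.40 in females and -1.11 in males. Those that fell were Psmb11, Prss16 and Ccl25, and the one that rose was Krt8. The log2 of their summed Cy5 signal ran from 13.57 to 14.04 in female controls and from 12.13 to 12.80 in female RAR, without overlap, and from 12.79 to 13.55 in male controls and from 12.33 to 13.12 in male RAR, with overlap. Of 5 plasmacytoid dendritic cell markers 2 rose (Siglech and Bst2) and 1 fell (Klk1b27) in each sex, with a median of 0.49 and 0.57. The log2 of their summed signal was higher after RAR without overlap, at 17.32 to 17.47 in female controls and 18.61 to 18.71 in female RAR, and at 17.44 to 17.71 in male controls and 18.75 to 19.06 in male RAR. Of 7 mature T-cell markers 3 rose and 1 fell in females and 4 rose and 1 fell in males, with a median of 0.42 and 0.77. The log2 of their summed signal overlapped between control and RAR in both sexes. It ran from 16.55 to 16.60 in female controls and from 16.55 to 16.62 in female RAR. In males it ran from 16.35 to 16.61 in controls and from 16.54 to 16.64 in RAR. Of 5 erythroid markers 1 rose and 1 fell in females and 1 rose and 0 fell in males. Their summed signal overlapped between control and RAR in both sexes. Of 4 markers of follicular dendritic cells and lymph node stroma 0 were called in females, and 1 rose and 0 fell in males. Their summed signal overlapped in females and was higher after RAR without overlap in males. Psmb11 was well above background on 8 arrays and Klk1b27 on 5. The part of these cells in the changes of Cd79b, Ms4a1, Vpreb3 and Cd22 was not tested.

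Slide and treatment are partly tied, which bears on the falls of Ms4a1 and Vpreb3. With the slide as a block, Cd79b and Cd22 were still called after RAR in both sexes, at -0.72 and -1.09 for Cd79b and 1.03 and 1.22 for Cd22, in females and males. Ms4a1 was at -0.81 in females (limma adjusted p = 0.147) and at -0.94 in males (limma adjusted p = 0.0392), and Vpreb3 was at -0.83 in females (limma adjusted p = 0.253) and at -1.07 in males (limma adjusted p = 0.0587). Within slide 2, which held 1 male RAR and 1 male control array, the differences were -1.06 for Cd79b, 1.53 for Cd22, -0.72 for Ms4a1 and -1.64 for Vpreb3. The block also ended the calls of Ms4a1 (limma adjusted p = 0.187) and Vpreb3 (limma adjusted p = 0.219) after the high dose in females, of Ms4a1 after the low dose in females (limma adjusted p = 0.106), of Vpreb3 after the low dose in males (limma adjusted p = 0.0655), of Cd22 after the high dose in males (limma adjusted p = 0.121), of Blk after RAR in females (limma adjusted p = 0.251), and of Cd22 for RAR against the low dose in females and males (limma adjusted p = 0.193 and 0.254). The fall of Cd79b after the high dose in males went to -0.56, under 1.5-fold. The female controls shared no slide with the female RAR or high dose arrays, so no within-slide value exists for those comparisons. With 3 arrays against 3, an exact two-sided permutation test of a single gene cannot go below p = 0.1. With normexp and loess together in place of the deposited ratios, Vpreb3 after RAR was at -0.31 in females (limma adjusted p = 0.0787) and -0.29 in males (limma adjusted p = 0.101), and Ms4a1 in females was at -0.43 (limma adjusted p = 0.0605), none of them called.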

How the data were processed

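Total RNA of 24 thymocyte samples was hybridised to Agilent mouse 8x60K arrays, with the sample in Cy5 and the reference pool in Cy3. The authors deposited a table of log2 Cy5/Cy3 ratios, which their methods give as computed in GeneSpring from Feature Extraction signals, and the scanner files, whose deposited intensity values are the processed signals (headers name Feature Extraction 11.5.1.1). The deposited log2 ratios were within 0.01 of the ratio of processed intensities for 99.77 to 99.85% of probes and were used as the main values. Control spots were left out, no spot was saturated, and 183 to 368 spots per array carried an outlier flag. Intensity columns served for detection, for bounds, for sums over marker lists and for alternatives. Bounds and sums used Cy5 after the average log intensities of both channels were quantile normalized between arrays.

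Probes were named through their transcript accession and RefSeq (GRCm38.p6), which named 28026 of 55681 probes. Groups came from the labels, and the study's methods call the 3 samples of a group independent. A linear model of the 8 group means was run with limma (version 3.58.1, R version 4.3.3), leaving 16 residual degrees of freedom with a prior of 1.63. A call needed a Benjamini-Hochberg adjusted p below 0.05 and 1.5-fold or more. The fit was tested on simulated data. A gene was represented by its probe with the highest mean Cy5, other B-lineage genes were given as counts with the 6 largest changes past the threshold named, and the most alike patterns by the highest Pearson r. One gene of the wider list is not reported here. The members and lists were chosen with earlier results of these data known. Alternatives were scanner ratios, normexp with an offset of 50 and loess, quantile normalization, Cy5 alone, dim probes left out (32732 left), a slide block, a replicate block, removal of the value farthest from the mean in every group, each array left out, a log2 change over 1.5 and the mean of a gene's probes. Promoters and motifs were taken from RefSeq sequence.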

Additional observations from a re-analysis of the deposited data

How the results depend on the processing

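Of the 23 gene comparisons with control or between treatments that were called, 0 reversed under any alternative, 8 were called under all 9 other settings (the log2 limit of 1.5 apart) and 13 with any single array left out. Those called throughout both were 7: Cd22 after RAR in both sexes, Cd79b after RAR in both sexes and against the low dose in males, and Ms4a1 after the high and low doses in males. Under the slide block 11 were still called and under normexp with loess 13, which moved Vpreb3 after RAR in males from -1.09 to -0.29 (limma adjusted p = 0.101), Ms4a1 after RAR in females from -0.73 to -0.43 (limma adjusted p = 0.0605) and Blk after RAR in females from -1.87 to -0.28. The cause was not tested. Counts below are of the 9 genes called.

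Against control, females had 5 called after RAR, 2 after the high dose and 1 after the low dose, and males 5, 4 and 2; RAR against the high dose gave 1 in females and 0 in males, and RAR against the low dose 1 and 2. The slide block gave 2, 0 and 0 in females against control, 2 after the high dose and 1 after the low dose in males, and 0 in females and 1 in males for RAR against the low dose. Normexp with loess gave 2 after RAR in females, 2 in males, 2 after the high dose in males, 0 after the low dose in females and 1 for RAR against the high dose in males. Quantile normalization gave 0 after the low dose in females, 1 in males, 2 for RAR against the high dose in females and 1 for RAR against the low dose in males. Cy5 alone gave 3 after the low dose in females, 1 in males and 1 for RAR against the high dose in males, and leaving out dim probes gave 3 after the low dose in females. A log2 change over 1.5 gave 1 (Blk) after RAR in females, 1 (Vpreb3) after the high dose in males and 0 in the other comparisons that had calls. Leaving out the farthest value of each group, which narrows the spread by construction, gave 4 after the high dose and 5 after the low dose in females, 4 after the low dose in males, 4 and 2 for RAR against the high dose and 3 for RAR against the low dose in females, 2 each for the sexes in control, high dose and RAR, and 5 interactions. The number of all 55681 probes called changed with the setting too, so these counts are not read alone. After the high dose in females, 2345 probes were higher and 2023 lower in the main fit. These were 714 and 909 with the slide block, 1754 and 927 with normexp and loess, and 7566 and 7103 with the farthest value left out. Between the sexes after RAR they were 191 and 53 in the main fit, and 5690 and 4689 with the farthest value left out.

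Replicate numbers did not pair the samples: same-numbered arrays deviated with r from -0.09 to 0.12, with 2 of 42 pairs over 0.1, and 6 of 24 arrays correlated best with their own number. The replicate block gave 0 after the low dose in females and 0 for RAR against the low dose in females. Of all 55681 probes it called 2542 higher and 2199 lower in the first comparison, and 1113 and 949 in the second.

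With each array left out in turn, the counts ran from 2 to 6 after RAR, 2 to 3 after the high dose and 0 to 2 after the low dose in females, and from 4 to 5, 3 to 4 and 1 to 3 in males. They ran from 1 to 2 and 0 to 1 for RAR against the high dose, 0 to 1 and 1 to 2 for RAR against the low dose, and stayed at 0 to 0 between the sexes and for the interaction. Female RAR fell to 2 without female control replicate 1 or female RAR replicate 1 and to 3 without female control replicate 3, and RAR against the high dose in females went to 2 without female RAR replicate 3, the array of lowest detection. Without male RAR replicate 1 or 2, RAR against the high dose in males gave 1, and without male low dose replicate 1 or 3 or male RAR replicate 3, RAR against the low dose in males gave 1. The call of Ms4a1 after the low dose in females was lost without 18 of the 24 arrays, those of Cd22 for RAR against the low dose in females and of Vpreb3 after the low dose in males without 14, and that of Blk without 16.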
